A study of Homo sapiens with 2 samples.

Results

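The TCF4 peaks described here lie outside the genes to which they were assigned, upstream of the transcript start or downstream of its end, and on chromosomes other than 3 and 18. They were chosen by the authors' position annotation and chromosome alone: 207 of 662 listed peaks qualified, 105 upstream and 102 downstream, and they belong to 113 of the 275 listed genes. The ChIP library came from SU-DHL-2, a human ABC-DLBCL line (the activated B-cell-like type of diffuse large B-cell lymphoma), which has no copy number gain of TCF4 per the labels. Its cells carried a tetracycline-inducible TCF4 and received 60 ng/ml doxycycline for 24 hours, were fixed with 1% formaldehyde, and gave chromatin for precipitation with a TCF4 antibody (5 µg). The input library was whole-cell extract DNA of the same line with the same inducible TCF4 and treatment. Each kind has 1 library, so no value has a replicate, no condition without induced TCF4 was analysed here, and endogenous and induced TCF4 cannot be told apart. A peak table measures no expression, so the labelled cell type could not be checked by marker levels.

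TCF4 (E2-2) is an E protein, a basic helix-loop-helix transcription factor that binds DNA as a dimer at E-box motifs with the core CANNTG. It acts in B-lymphocyte and plasmacytoid dendritic cell development, and it often occupies distal enhancers as well as promoters. The deposited table lists peaks near TCF4 signature genes, with an Up or Down mark for each and no stated reference for it, so it is a selection from all peak calls. The lowest scaled log2 ratio of ChIP over input in the table, rounded, is 1.87, where scaled means divided by the authors' library constants. Coordinates are hg19 as deposited.

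The flanking site closest to a transcript start was 468.5 bp upstream of NCAPG2, which encodes a subunit of condensin II, a complex that compacts chromosomes for mitosis. The peak, on chromosome 7 at 158497697 to 158498284, was the only upstream peak whose near edge (175 bp from the start) fell inside the promoter window available from RefSeq, 250 bases before to 50 after the start. That window is shown because the peak's gene-proximal edge covers its first bases. It is chr7:158704755-158705054 of GRCh38.p14, minus strand, with CANNTG cores in capitals:
NCAPG2 promoter: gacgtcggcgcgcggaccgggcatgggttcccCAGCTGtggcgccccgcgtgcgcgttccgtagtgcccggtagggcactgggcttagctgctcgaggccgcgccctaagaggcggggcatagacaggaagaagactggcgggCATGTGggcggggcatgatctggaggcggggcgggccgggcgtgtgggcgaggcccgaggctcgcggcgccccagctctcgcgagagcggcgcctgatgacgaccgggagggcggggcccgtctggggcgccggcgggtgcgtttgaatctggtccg
Of the 2 cores, CAGCTG stands 218 bases before the RefSeq start and CATGTG 107 bases before it. If the authors' start is the RefSeq start, the first lies inside the peak interval and the second outside it, while the apex of the peak was 540 bp from the start. CANNTG, read on both strands because it is its own reverse complement, occurred in 68.7% of 35116 promoter windows of this length, and CAGCTG in 17.9%. A match of these letters is a description and not a bound site.

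The flanking sites with most ChIP reads lay on both sides of genes, at distances from under 1 kb to over 100 kb. The peak with most reads belonged to IER2, an immediate early gene, and lay 56.8 kb beyond its end on chromosome 19 (13321844 to 13323240). With 435 ChIP and 48 input reads it was enriched 8.18-fold (95% interval 6.06 to 11.3, exact binomial, counting error only, as for all folds here). BCL2L11, which came next, encodes the pro-apoptotic protein BIM, and its peak lay 49.02 kb beyond the gene end on chromosome 2 (111974664 to 111975426). It held 316 ChIP and 24 input reads and was enriched 11.9-fold (7.84 to 18.8). That was the highest fold among the 8 upstream and 8 downstream peaks with most reads. A lesser BCL2L11 peak, 33.1 kb beyond the end, held 37 ChIP and 5 input reads, 6.68-fold (2.62 to 21.8). Upstream, the NCAPG2 peak led with 291 ChIP and 30 input reads, 8.76-fold (6.002 to 13.2).

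The remaining upstream peaks with most reads belonged to IRF4, PITRM1, MCTP2, SHB, GTF3A, PIM1 and SYK, and ranged from 262 to 203 ChIP reads. The IRF4 peak, at a transcription factor gene needed for plasma-cell differentiation, lay 19.6 kb upstream and held 262 ChIP and 29 input reads, 8.15-fold (5.55 to 12.4). PITRM1, a mitochondrial peptidase gene, had its strongest peak 56.2 kb upstream with 261 ChIP and 28 input reads, 8.41-fold (5.69 to 12.9). MCTP2, which encodes a membrane protein with C2 domains, reached 9.24-fold (6.12 to 14.6) at a site 123 kb upstream with 256 ChIP and 25 input reads. That distance is to the start of the transcript assigned to the peak, of 47.3 kb. Another listed MCTP2 transcript, of 186 kb, starts nearer to the peak. The fold intervals of IRF4, PITRM1 and MCTP2 overlap, so counting error alone does not separate their enrichments. SHB, an adaptor gene of tyrosine kinase signalling, and GTF3A, which encodes the 5S rRNA transcription factor TFIIIA, were at 8.12-fold and 7.22-fold. PIM1, a serine/threonine kinase gene, was the lowest of the upstream 8 at 5.67-fold (3.96 to 8.35).

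Downstream, IFITM1, an interferon-induced membrane protein gene, followed BCL2L11 with 283 ChIP and 30 input reads, 8.51-fold (5.83 to 12.9). Its peak centre lay 109.5 bp past the end of a transcript of 1.28 kb, and the peak reached 350 bp back into the gene, the only 1 of the 207 peaks whose interval overlapped its assigned transcript. It was also the only downstream peak that carried the authors' promoter mark, since the start was 1.39 kb away. The BANF1 peak, at the gene of a chromatin-binding nuclear envelope factor, lay just outside that boundary, 185.5 bp past the end. It held 222 ChIP and 19 input reads in 359 bp and was enriched 10.5-fold (6.6 to 17.8). SPIB, an ETS factor gene of B cells and plasmacytoid dendritic cells, had 273 ChIP and 45 input reads 5.89 kb past its end, 5.48-fold (3.98 to 7.68). The other downstream peaks among these were those of MTMR1, ANXA6 and MCTP2, at 6.89-fold, 5.92-fold and 6.96-fold.

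**Figure D1:**
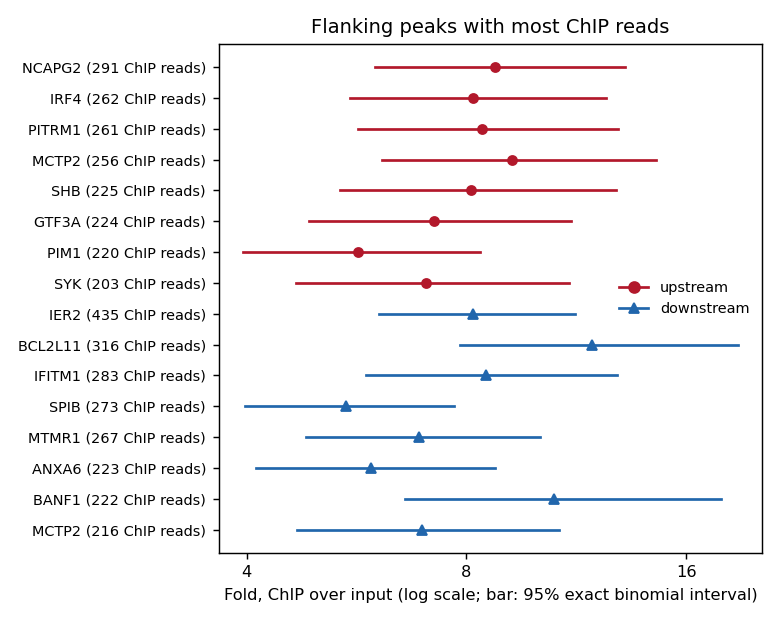
Fold enrichment of ChIP over input (log axis) at the 8 upstream and 8 downstream flanking peaks with most ChIP reads; points are folds and bars exact binomial 95% intervals. BCL2L11 (11.9-fold) and BANF1 (10.5-fold) are the highest points, and most of the intervals overlap.

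Upstream and downstream sites were close in number. Of the 207 flanking peaks 50.7% (Wilson interval 44 to 57.5) were upstream. Counted by genes, 62 genes had an upstream and 68 a downstream peak: 45 had upstream peaks only, 51 downstream only and 17 had both. The upstream share was 45.05% (36.1 to 54.3) among the 111 flanking peaks of chromosomes 3 and 18. Flanking peaks made up 48.03% of the peaks outside chromosomes 3 and 18 and 48.1% on them. By mark, 147 of the 316 peaks of Up genes (46.5%, 41.1 to 52.03) and 60 of the 115 peaks of Down genes (52.2%, 43.1 to 61.1) outside those chromosomes were flanking.

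Flanking peaks lay mostly well away from their genes, and about equally far on either side. The distance from peak centre to the nearer gene end had a median of 24.9 kb (order-statistic interval 19.1 to 34.4) upstream and 22.8 kb (17.7 to 34.8) downstream. The difference of 2.16 kb had a combined interval of -11.3 to 12.9 kb. The distributions came apart close to the gene: 3 of 105 upstream peaks (2.86%, 0.976 to 8.07) and 9 of 102 downstream peaks (8.82%, 4.71 to 15.9) lay within 2 kb. Within 10 kb lay 25 upstream peaks (23.8%, 16.7 to 32.8) and 32 downstream peaks (31.4%, 23.2 to 40.9). These intervals overlap and treat peaks of a gene as independent. Over 100 kb away lay 16 upstream (15.2%) and 15 downstream peaks (14.7%). All these distances are to the transcript assigned to a peak, and another transcript of the same gene can lie nearer. The 16 include both upstream MCTP2 peaks, to which another listed MCTP2 transcript starts nearer. Measured from the transcript start, 15.2% of upstream and 28.4% of downstream peaks were over 100 kb away, a distance that for downstream peaks includes the transcript itself.

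**Figure D2:**
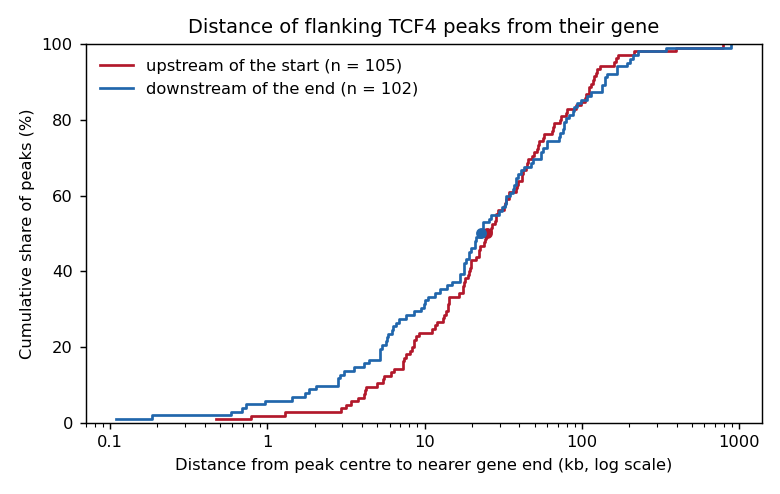
Cumulative share of peaks (%) against the distance from peak centre to the nearer gene end (kb, log axis) for 105 upstream and 102 downstream peaks; dots mark the medians, 24.9 and 22.8 kb. The downstream curve runs above the upstream curve below about 10 kb, and the curves run close together beyond it.

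The downstream sites nearest to their genes, after IFITM1 and BANF1, belonged to CKS1B, NPM3 and USP7. The peak of CKS1B, which encodes a cyclin-dependent kinase subunit, lay 588.5 bp past the end with 109 ChIP and 17 input reads, 5.79-fold (3.45 to 10.3). The NPM3 peak, of a nucleophosmin-family gene, lay 691.5 bp past the end at 4.78-fold (2.82 to 8.56). The peak of the deubiquitinase gene USP7 lay 736 bp past its end with 157 ChIP and 20 input reads, 7.09-fold (4.43 to 11.9). After NCAPG2, the nearest upstream sites were those of KIAA0040 (786.5 bp), the glutamine transporter gene SLC38A1 (1296 bp), ANXA6 (2928.5 bp) and LACTB (3149 bp). KIAA0040 had 64 ChIP and 9 input reads there, 6.42-fold (3.18 to 14.7), and SLC38A1 137 ChIP and 19 input reads, 6.51-fold (4.01 to 11.1). NCAPG2, KIAA0040 and SLC38A1 supplied the only upstream promoter marks. With IFITM1 these made 4 of 207 flanking peaks (1.93%, 0.754 to 4.86) marked as promoter, against 21 of 224 intragenic peaks (9.38%, 6.21 to 13.9). The mark and the position class are both defined by position relative to the transcript, so they are not independent measures.

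The farthest sites, XPNPEP1 and DDX18 among them, lay over 100 kb from the gene they were assigned to. XPNPEP1, a cytosolic aminopeptidase gene, had a chromosome 10 peak 892 kb past its end, where 82 ChIP and 14 input reads gave 5.29-fold (2.98 to 10.1). The RNA helicase gene DDX18 had one 785 kb upstream, also far from the gene, where 67 ChIP and 11 input reads gave 5.5-fold (2.88 to 11.5). FAM49A, now named CYRIA and encoding a RAC1-binding protein, had one 394 kb upstream (162 ChIP and 29 input reads, 5.04-fold, 3.38 to 7.77). ZWINT, a kinetochore gene, had a peak 341 kb past its end with 29 ChIP and 6 input reads. The prion protein gene PRNP and the phosphatase gene CDKN3 had theirs 164 and 215 kb upstream. Their folds of 8.88 (4.89 to 17.7) and 4.57 (2.69 to 8.2) lie within the range of sites close to genes. In the NCBI gene order of GRCh38.p14, used for names only, the next named protein-coding genes on those sides were SORCS1 for XPNPEP1, DPP10 for DDX18, RAD51AP2 for FAM49A and PCDH15 for ZWINT. They were CACNA1A beyond IER2, ANAPC1 beyond BCL2L11, ESYT2 beyond NCAPG2 and DUSP22 beyond IRF4. Whether a peak lies before, in or past such a neighbour was not determined, because no hg19 annotation was used here.

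The assigned gene was also compared with the other listed genes. Transcript ends could be placed in hg19 for 255 of the 275 genes from the authors' distances. Another such gene lay on the chromosome of 205 of the 207 flanking peaks, and of these 205 peaks 0 fell inside another of these genes and 0 were nearer to one than to the assigned gene. If the authors assigned each peak to its nearest listed gene, both counts are 0 by construction. They therefore do not check the assignment. A single peak, of the non-coding gene DLEU1, lay outside its assigned transcript but inside another listed transcript of the same gene.

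Over both sides together, distance from the gene had low rank correlations with the size of a peak. Across the 207 peaks Spearman's rho between distance and the scaled log2 ratio was -0.03, between distance and ChIP reads -0.14, and between distance and width -0.12. Between distance and ChIP reads rho was -0.01 over the 105 upstream and -0.25 over the 102 downstream peaks. For width it was -0.05 upstream and -0.17 downstream, and for the ratio -0.02 and -0.05. These are descriptions over peaks that share libraries and genes. The 28 peaks within 5 kb had a median of 117 ChIP reads (90 to 149) and a width of 476.5 bp (417 to 556). The 29 peaks at 5 to 10 kb had 79 reads (65 to 107), the 89 at 10 to 50 kb 91 reads (73 to 109) and the 30 at 50 to 100 kb 86 reads (66 to 128). The 31 peaks over 100 kb had 82 reads (67 to 123) and a width of 404 bp (370 to 453). The median scaled log2 ratio was 2.38 (2.27 to 2.64) within 5 kb and 2.24 (2.12 to 2.44) at 5 to 10 kb. It was 2.31 (2.17 to 2.39) at 10 to 50 kb, 2.22 (2.12 to 2.53) at 50 to 100 kb and 2.33 (2.26 to 2.54) over 100 kb.

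Width and reads overlapped widely between the sides. Median width was 421 bp (400 to 453) upstream and 431 bp (409 to 460) downstream, with ranges of 180 to 968 and 150 to 1396 bp. Median ChIP reads were 85 (75 to 108) upstream and 91 (81 to 109) downstream, and median input reads 16 and 15.5. The upstream peaks held 10829 ChIP and 1828 input reads in all and the downstream peaks 11159 and 1681. Wider peaks held more reads (Spearman's rho 0.81 over the 207 peaks), and peaks with more ChIP reads also had more input reads (rho 0.87).

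The median enrichment was lower upstream than downstream, by a margin whose interval includes 0 over all flanking peaks. The median scaled log2 ratio was 2.27 (2.17 to 2.37) upstream and 2.35 (2.29 to 2.52) downstream, a difference of -0.09 (-0.27 to 0.03). In folds the medians were 5.04 (4.79 to 5.55) and 5.42 (5.2 to 6). Peaks whose fold interval began at or above 4 numbered 41 of the 207 (19.8%, 14.9 to 25.8), near the 18.6% of all listed peaks. They split into 15 of 105 upstream (14.3%, 8.85 to 22.2) and 26 of 102 downstream (25.5%, 18.03 to 34.7). Among the 101 flanking peaks that belong to the 50% of listed peaks with most ChIP reads, the ratio was 2.3 (2.15 to 2.47) in 50 upstream and 2.63 (2.38 to 2.75) in 51 downstream peaks. There the difference was -0.33 (-0.52 to -0.03), and the input reads had medians of 25 (21 to 27) upstream and 20 (18 to 22) downstream, while ChIP reads were 136.5 and 131. With 1 library of each kind this was not tested.

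**Figure D3:**
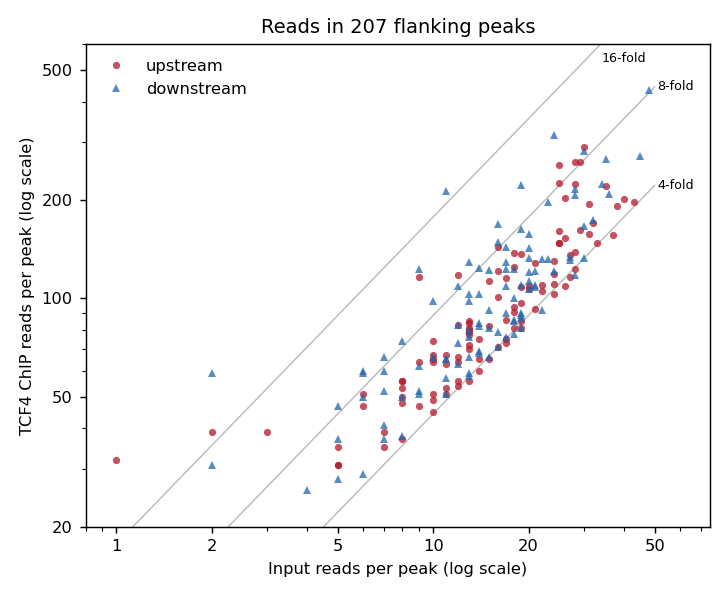
ChIP reads against input reads per peak (both log axes) for the 105 upstream (circles) and 102 downstream (triangles) peaks; grey lines mark scaled folds of 4, 8 and 16. The IER2 peak (435 ChIP reads) is at the top, and the points above 16-fold are the XPNPEP1 peak with 213 ChIP reads and peaks with 1 or 2 input reads.

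The 17 genes with peaks on both sides allow a comparison within a gene. The mean scaled log2 ratio was higher upstream in 5 of them and higher downstream in 12, with a median difference of -0.34. The 5 were DDX18, IRF4, MCTP2, PIM1 and SYK. The peak with most ChIP reads was upstream in 10 of the 17 genes and downstream in 7. That count takes the largest value on a side, which favours a side with more peaks, while the ratio is a mean. The order by reads and the order by ratio are therefore not directly comparable. At APOBEC3G, a cytidine deaminase gene of antiviral defence, the upstream peak 3.77 kb away held 64 ChIP and 10 input reads, 5.78-fold (2.95 to 12.6). The downstream peak 966 bp away held 149 and 16, 8.41-fold (5.01 to 15.1). At IRF4 the upstream peak (8.15-fold) stood over downstream peaks of 5.54-fold (3.19 to 10.3) at 32.2 kb and 6-fold (3.73 to 10.1) at 59.99 kb, with overlapping intervals.

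Flanking peaks were mostly scattered, 1 or 2 to a gene. Of the 113 genes 59 had 1 flanking peak, 30 had 2, 16 had 3 and 8 had 4 or more. The 8 genes, which hold 40 of the 207 peaks, were XPNPEP1 (7), FAM49A (6), CDCA7L, DDX18 and SLC38A1 (5 each), and COL6A1, MCTP2 and PITRM1 (4 each). The 77 gaps between consecutive peaks on 1 side of a gene had a median of 25.06 kb, and 1 gap, between neighbouring XPNPEP1 peaks, was under 1 kb (0.335 kb). The flanking peaks lay on 21 chromosomes, with 25 on chromosome 10, 21 on chromosome 2 and 20 each on chromosomes 1 and 12.

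All 7 XPNPEP1 peaks were downstream, from 88.5 to 892 kb past the gene end. The strongest by ratio, at 111422716 to 111423425 and 201 kb past the end, held 213 ChIP and 11 input reads, 17.5-fold (9.57 to 35.5), the highest lower bound of any flanking peak. The other 6 ran from 3.91-fold to 7.15-fold with 52 to 103 ChIP reads, fewer than at this site. Its fold interval overlaps those of 4 of them, at 7.15-fold (4.002 to 13.9), 6.7-fold (3.03 to 17.5), 5.29-fold (2.98 to 10.1) and 5.28-fold (2.91 to 10.4). The 4 COL6A1 peaks, at a collagen VI chain gene marked Down, were all downstream within 17.9 to 47.5 kb. They ran from 3.8-fold (2.5 to 5.97) to 9.53-fold (5.7 to 17.1), and the next named protein-coding gene on that side is COL6A2, which encodes another collagen VI chain. The 4 PITRM1 peaks were all upstream, at 19.8 to 118 kb.

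SLC38A1 was flanked on both sides, by 3 upstream peaks at 1.3, 4.15 and 29.3 kb and 2 downstream peaks at 6.85 and 93.1 kb. The upstream sites were at 6.51-fold, 4.14-fold (2.96 to 5.89) and 4.48-fold (2.87 to 7.26), and that at 4.15 kb had 197 ChIP and 43 input reads, the most input reads of any upstream peak. The downstream site at 6.85 kb had 123 ChIP and 9 input reads, 12.3-fold (6.29 to 27.6). DDX18 showed the opposite extreme of depth: its upstream folds of 28.9 and 17.6 rested on 1 and 2 input reads with intervals of 4.82 to 1176 and 4.56 to 150.5. The same limit holds for ZNF267, a zinc finger gene with 59 ChIP and 2 input reads 76.99 kb past its end (26.6-fold, 7.05 to 225). FAM49A, marked Down, had 4 upstream peaks at 13.4 to 394 kb and 2 downstream peaks at 133 and 211 kb, between 3.85-fold and 6.45-fold. CDCA7L, with 3 upstream and 2 downstream peaks at 26.3 to 64.3 kb, ran from 4.06-fold to 7.52-fold.

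**Figure D4:**
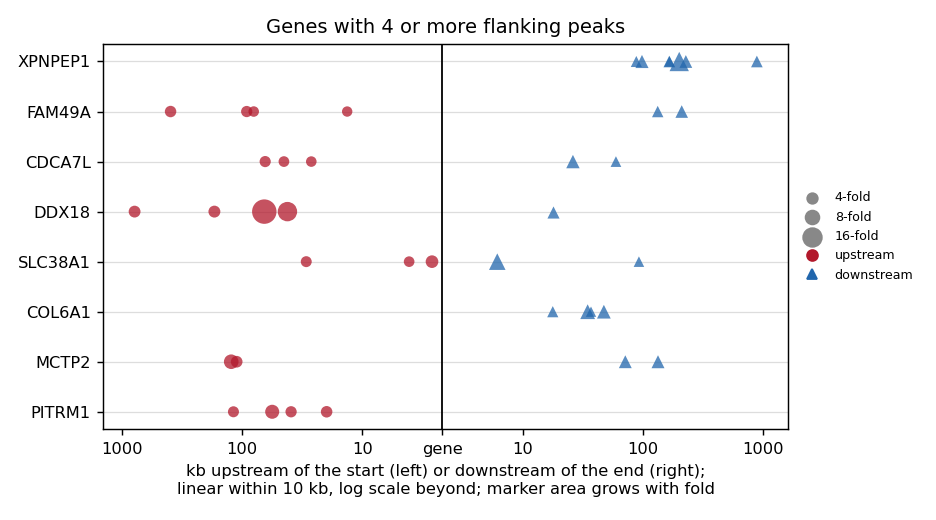
Position of the flanking peaks of the 8 genes with 4 or more, as kb upstream of the start (circles, left) or downstream of the end (triangles, right), linear within 10 kb and log beyond; marker area grows with fold. XPNPEP1 and COL6A1 have downstream peaks only and PITRM1 upstream peaks only, and the large DDX18 markers rest on 1 and 2 input reads.

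Genes of B-cell and lymphoma lists were reached from outside as follows, with all peaks of a list set beside the flanking median ratio of 2.32. Of all 178 genes listed outside chromosomes 3 and 18, 113 (63.5%) had a flanking peak, and a list's count is read against its own members in the table there. B-lineage transcription factors had 5 of 29 members in the table outside those chromosomes, and 4 of these 5 had a flanking peak, namely IRF4, SPIB, BCL11A and LMO2, with 8 peaks (4 upstream, 4 downstream) and a median scaled log2 ratio of 2.34. BCL11A, a zinc finger repressor gene, had 1 peak 48.2 kb upstream (73 ChIP and 17 input reads, 3.88-fold, 2.26 to 7.01) and 1 peak 1.84 kb past its end (113 and 20, 5.1-fold, 3.15 to 8.66). The ABC-DLBCL list (20 genes) had 4 in the table, of which 3 had a flanking peak, IRF4, PIM1 and CREB3L2, all marked Up, with 7 peaks and a median of 2.4. CREB3L2, an endoplasmic reticulum bZIP factor gene, had 1 peak 72.5 kb past its end with 167 ChIP and 30 input reads, 5.02-fold (3.39 to 7.68). PIM1 had no peak within the gene. Its upstream peaks at 14.3 and 66.7 kb and its downstream peak at 19.1 kb were at 5.67-fold, 5.5-fold and 5.33-fold.

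The GCB-type list (17 genes) had 2 in the table, LMO2 and DENND3, each with a flanking peak and both marked Down, with 3 upstream peaks and a median ratio of 1.99. The LMO2 peaks, at a germinal-centre transcription cofactor gene, lay 22.3 and 78.9 kb upstream at 4.19-fold (2.33 to 8.09) and 4.04-fold (2.43 to 7.03). The DENND3 peak, at a Rab-activating factor gene, lay 98.9 kb upstream at 4.96-fold (2.66 to 10.1). The B-cell receptor list (33 genes) had 2 in the table and 1 with a flanking peak, SYK, marked Up, with 3 peaks and a median of 2.79. SYK, the proximal receptor kinase, had upstream peaks at 26.9 kb (203 ChIP and 26 input reads, 7.05-fold, 4.67 to 11) and 37.9 kb (116 and 9, 11.6-fold, 5.92 to 26.1). Its downstream peak 13.9 kb past the end had 122 and 15 reads, 7.34-fold (4.28 to 13.5).

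DLBCL driver genes (49) had 4 in the table and all 4 had a flanking peak, namely IRF4, PIM1, the linker histone gene HIST1H1C and MYC, all marked Up, with 8 peaks and a median ratio of 2.4. HIST1H1C had 50 ChIP and 8 input reads 14.1 kb upstream, 5.64-fold (2.65 to 13.8). The MYC peak held 28 ChIP and 5 input reads, 5.05-fold (1.93 to 16.8), and its side and distance refer to CASC11, the neighbouring gene that its accession names. The apoptosis list (24 genes) had 2 in the table and 1 with a flanking peak, BCL2L11, whose 2 peaks had a median ratio of 3.02, and the receptor list (33 genes) likewise had 1 of 2, the integrin gene ITGAX, 6.32 kb past its end at 4.38-fold (2.44 to 8.44). The cell cycle list (28 genes) had 2 in the table outside those chromosomes, and 0 of the 2 had a flanking peak. The B-cell identity list (5), the T-cell list (4) and the myeloid list (3) had 0 genes in the table on any chromosome, so no peak near them could be listed. With 2 to 5 listed genes a list, these counts do not set any list apart from the 63.5% of all listed genes.

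For 52 of the 113 genes the flanking peaks were the only listed sites, while 61 also had a peak within the transcript. Peaks of genes without a peak within were assigned to shorter transcripts. Their median transcript length was 15.2 kb (11.2 to 17.7) over 87 peaks, against 45.03 kb (37.9 to 51.8) over 120 peaks of genes with one. A gene counts once per flanking peak in these medians, and the intervals treat its peaks as independent. Median ratios of these sets of peaks were 2.38 (2.29 to 2.47) and 2.26 (2.17 to 2.35), and their median distances 22.5 kb (14.3 to 38.6) and 26.4 kb (19.6 to 34.2). Of the 113 genes 81 were marked Up and 32 Down. Up genes supplied 71.4% of upstream and 70.6% of downstream peaks. Flanking peaks of Up genes had a median ratio of 2.33 (2.27 to 2.39) and those of Down genes 2.24 (2.12 to 2.44), with median distances of 26.3 kb (19.1 to 33.1) and 22.4 kb (11.6 to 37.1).

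Set against the 224 intragenic peaks outside chromosomes 3 and 18, flanking peaks had close medians of width, reads and ratio, with intervals of the differences that include 0. Median width was 425 bp (411 to 449) in flanking and 436 bp (419 to 462) in intragenic peaks, a difference of -11 bp (-40.5 to 18.4). Median ChIP reads were 89 (81 to 103) and 97 (91 to 110), a difference of -8 (-23.3 to 7.23), and the scaled log2 ratio 2.32 and 2.27, a difference of 0.05 (-0.07 to 0.14). The transcripts assigned to flanking peaks, counted once per peak, had a median length of 29.4 kb (23.3 to 35.1) and those of intragenic peaks 66.9 kb (57.2 to 78.2), a comparison in which a longer gene has more room for a peak inside it. The median ratio of 2.32 (2.26 to 2.38) in these flanking peaks was higher than the 2.15 (2.08 to 2.26) in the 111 flanking peaks of chromosomes 3 and 18, with intervals that overlap at their edges. The median ChIP signal, the authors' reads per width and library, was 2.06 (1.96 to 2.2) outside and 1.99 (1.9 to 2.15) on those chromosomes. The median input signal was 0.4 (0.383 to 0.419) outside and 0.423 (0.384 to 0.457) on them, and its part in the gap was not tested.

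**Figure D5:**
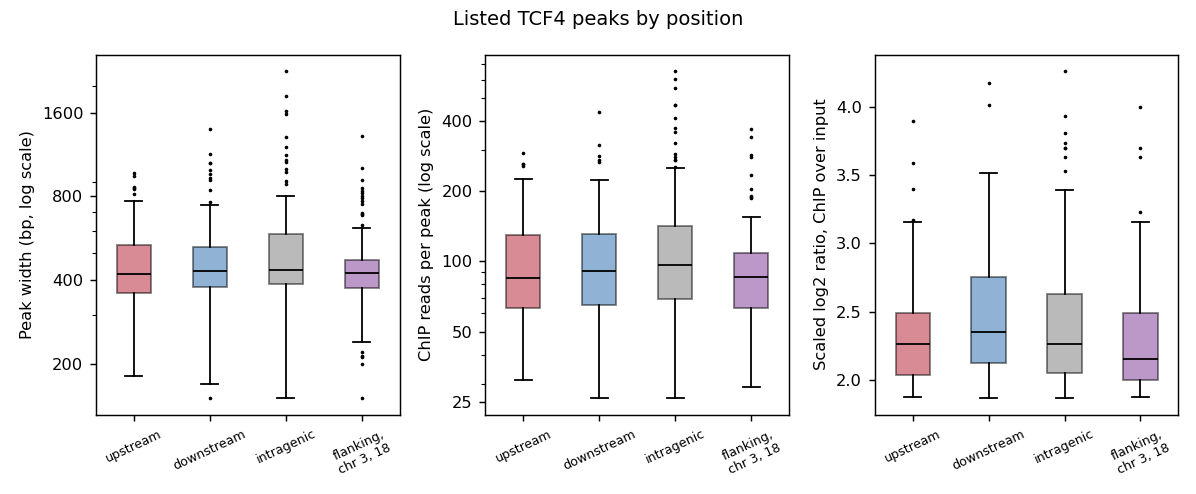
Peak width (bp, log axis), ChIP reads per peak (log axis) and scaled log2 ratio for upstream, downstream and intragenic peaks outside chromosomes 3 and 18 and for flanking peaks on them; boxes span the quartiles, lines are medians, whiskers reach 1.5 box lengths and dots lie beyond. Median ratios are 2.27, 2.35, 2.27 and 2.15, and the boxes overlap in every panel.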

How the data were processed

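Per the file headers the authors deposited 1 table of peaks with whole-number read counts for ChIP and for a column headed IC, taken as the input, the only other library. BWA, GATK and hg19 are named in the submitters' processing notes; no source used here names the peak caller. The authors' deposited signal equals reads over width and 1 constant per library (93.5 M ChIP and 84.4 M input reads if it is RPKM), and these constants scaled all folds. The scaled log2 ratio was computed with 1 read added to each library, and equalled the authors' deposited log2 ratio to within 5.6e-10. The local −log10 p-value is the authors', per the file headers, and was used only as a filter. Distances, position and marks are the authors', measured from peak centres.

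Intervals are at 95% (Clopper-Pearson for folds, Wilson for shares, order statistics for medians). Those of folds and medians were tested on simulated independent values, which do not share genes as the peaks do. Those of shares and differences were not tested in this way. Intervals of differences combine both groups' limits. Counts per peak ran from 26 to 435 ChIP reads and 1 to 48 input reads. Of the 113 genes, 108 matched NCBI symbols and 5 an accession. Strand came from RefSeq or from several peaks of an accession (131 of 132 agree; PDE4DIP did not, and its peaks set it). Named were, by rule, the 8 peaks a side with most reads, the 6 with the highest lower bound, the 5 a side nearest and farthest, genes with 4 or more flanking peaks and list members; further peaks of named genes, APOBEC3G (peaks on both sides), DLEU1 (inside another transcript of its gene) and PDE4DIP (strand only, no flanking peak) were chosen after their values were seen. One item is not reported here and was left out of the lists. Members, lists and rules were chosen with earlier results of these data known. Tools were scipy 1.17.1, numpy 2.4.6, pandas 2.3.3, matplotlib 3.10.9 and Python 3.11.15.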

Additional observations from a re-analysis of the deposited data

How the results depend on the processing

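Of 67 values of 10 results under alternatives, 64 stayed inside the interval of the main value and 3 moved beyond it. The intervals of all 8 differences include 0, so none has a settled direction, and their sign changed in 7 of the alternative values: width (flanking minus intragenic) was 3.75 bp with genes counted once and 2 bp over all chromosomes, against -11 bp; the share marked Up (upstream minus downstream) was -2.56 and -0.95 percentage points in the same 2 settings, against 0.84; ChIP reads (upstream minus downstream) were 5.5 among the peaks with most reads, against -6; and the scaled log2 ratio (flanking minus intragenic) was -0.01 at a local −log10 p of at least 3, against 0.05. The upstream share fell below 50% in 4 settings. The lowest, 47.7%, was with genes counted once, where a gene with peaks on both sides counts once on each side. Among the 50% of listed peaks with most ChIP reads, the width difference of upstream minus downstream was 58 bp, against -10 bp over all flanking peaks, and the difference in scaled log2 ratio -0.33, against -0.09; the cause was not tested. Unscaled reads gave a median fold of 5.91 against 5.33, which follows from the constants. A local −log10 p of at least 3, genes counted once, merged peaks, removal of genes with 5 or more flanking peaks, all chromosomes and a pseudocount of 0.5 moved nothing beyond its interval. Removing the intragenic IGHM and IGH@ peaks, chosen after seeing the data, did not either. No paired analysis was possible because each group has 1 library. Depth limits single peaks: 12 of the 207 had 5 or fewer input reads.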
